A study of Mus musculus with 2 samples.

Results

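The potassium channel genes of the mouse were read in single cells of the embryonic forebrain. They were taken as every counted gene whose symbol begins with Kcn, one or more letters and a number, which gave 98 of 32285 genes. By role these were 30 voltage-gated pore subunits, 10 electrically silent subunits, 16 auxiliary subunits, 8 calcium- or sodium-activated pore subunits, 15 inward rectifiers, 14 leak channels of the 2-pore-domain type and 5 non-coding or antisense transcripts. A UMI, the tag that marks one captured RNA molecule, was found in a kept cell for 95 members. No UMI was found for Kcna10, Kcnj1 and Kcnk16, which allows each of them at most 0.0308 CPM in the wild-type library by the limit of 3 counts. CPM is the usual unit that scales a gene's UMIs, summed over the cells of a class, to one common total per class and library.

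Potassium channels let potassium leave or enter a cell and so set its resting potential, the shape of its action potentials and its firing pattern. Voltage-gated pores open on depolarization, calcium-activated pores couple the membrane to calcium entry, inward rectifiers and leak channels act near rest, and silent and auxiliary subunits change the gating or the trafficking of a pore they join. In the forebrain before birth, dividing radial glia have a strongly negative resting potential carried by potassium, and young neurons acquire their channels in steps as they migrate and settle. Cyfip2, the gene of the study's knockout label, codes for a WAVE complex protein that acts on branched actin.

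The study made 2 droplet libraries from forebrains at embryonic day 18.5, one from wild-type mice and one labelled Cyfip2 knockout, with 2 forebrains pooled in each. The sources used here do not give strain, sex, litter or the allele behind the knockout label. With 1 library per group there is no replicate check of any difference between them, so no p-value is given, and every interval below covers counting error only. Deposited totals were 123978461 UMIs for the wild-type and 150828048 for the knockout-labelled library.

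After doublets were left out, 8426 cells of the wild-type and 11533 of the knockout-labelled library remained, with a median of 9567 and 7787 UMIs per cell. Cyfip2 itself stood at 84.9 CPM in the wild-type and 84.4 CPM in the knockout-labelled library, so the label was not borne out by these tags, and the library is called knockout-labelled throughout. The sources used here do not say which part of the gene is deleted, so the tags may not test the label. By family, Cyfip2 read 103 and 92.6 CPM in excitatory neurons and 85.5 and 78.6 CPM in GABAergic neurons. It read 35.0 and 62.7 CPM in progenitors, 3.69 and 46.5 CPM in microglia and macrophages, and 14.5 and 125 CPM in vascular cells. In this text 2 values joined by "and" stand for the wild-type and then the knockout-labelled library. The libraries shared 32 cell barcodes.

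Cells were clustered without any of the 98 members, and 28 of 29 clusters took a family name from marker genes. A name means that a cluster resembles that cell type by its markers. Excitatory neurons held 4800 and 5989 cells, GABAergic neurons 2073 and 3575, and progenitors 1194 and 1383. The small families were Cajal-Retzius cells with 38 and 59 cells, microglia and macrophages with 68 and 142, vascular cells with 34 and 69, and meningeal fibroblasts with 18 and 34. Cluster 21, with 201 and 282 cells, stayed unnamed. Barcodes under 100 UMIs, which hold free RNA rather than cells, gave 988 and 992 CPM of summed members, so low levels of a widely used member in any one class cannot be told apart from free RNA. Summed over all kept cells the members took 1191 and 1157 CPM.

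4 members whose levels were concentrated in different cell types are shown by the 250 bases before their RefSeq start, 5′ to 3′, chosen after their values were seen. Kcnj10 (radial glia) is read from chr1:172340960-172341209 on the plus strand, Kcnip2 (Cajal-Retzius cells) from chr19:45816064-45816313 on the minus strand, Kcnj8 (mural cells of vessels) from chr6:142571615-142571864 on the minus strand, and Kcnk13 (microglia) from chr12:99964249-99964498 on the plus strand, all in GRCm38.p6. Capitals mark the GC box GGGCGG on either strand.
Kcnj10: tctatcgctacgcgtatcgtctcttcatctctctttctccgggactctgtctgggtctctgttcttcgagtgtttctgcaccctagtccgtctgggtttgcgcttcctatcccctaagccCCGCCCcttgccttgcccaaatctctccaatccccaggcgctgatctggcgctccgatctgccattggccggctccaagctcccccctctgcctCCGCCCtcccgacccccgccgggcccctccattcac
Kcnip2: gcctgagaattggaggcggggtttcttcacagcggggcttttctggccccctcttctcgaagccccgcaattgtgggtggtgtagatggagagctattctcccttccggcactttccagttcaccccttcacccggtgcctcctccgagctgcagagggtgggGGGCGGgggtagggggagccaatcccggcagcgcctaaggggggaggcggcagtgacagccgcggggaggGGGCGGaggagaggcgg
Kcnj8: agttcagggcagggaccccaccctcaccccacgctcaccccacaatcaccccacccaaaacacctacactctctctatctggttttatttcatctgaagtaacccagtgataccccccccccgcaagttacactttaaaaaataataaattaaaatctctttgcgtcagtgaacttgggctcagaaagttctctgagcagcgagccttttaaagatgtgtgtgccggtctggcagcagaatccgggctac
Kcnk13: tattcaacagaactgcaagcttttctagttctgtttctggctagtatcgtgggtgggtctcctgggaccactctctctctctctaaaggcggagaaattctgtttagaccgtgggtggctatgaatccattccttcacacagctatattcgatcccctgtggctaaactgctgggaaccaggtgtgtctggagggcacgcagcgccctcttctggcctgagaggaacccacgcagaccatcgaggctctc

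The GC box occurred 2 times each before Kcnj10 and Kcnip2 and not before Kcnj8 or Kcnk13. Of the 71 members with an entry in the RefSeq promoter table, 35 held a GC box in this window (49.3%), against 32.9% of all 27025 promoters. A TATA box (TATAAA, either strand) was in 2 of the 71 (2.82%), before Kcnj13 and Kcnj9, against 12.97% of all, and an E-box (CANNTG, which reads the same on both strands) was in 67.6% against 66.0%. The members had a median of 8 CpG dinucleotides in the window against 6 over all promoters. These matches describe letters, not sites in use.

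Neurons carried more of the members than progenitors did. All members summed to 1385 and 1384 CPM in excitatory neurons, 1095 and 1062 CPM in GABAergic neurons, 722 and 641 CPM in progenitors, 1720 and 1719 CPM in Cajal-Retzius cells, and 249 and 210 CPM in microglia and macrophages. The vascular family read 1898 and 740 CPM, and its makeup differed between the libraries, as described with the inward rectifiers. By role, voltage-gated pores took 379 and 375 CPM over all cells, leak channels 181 and 184, auxiliary subunits 99.998 and 91.5, calcium- or sodium-activated pores 92.6 and 85.9, inward rectifiers 47.0 and 39.3, and silent subunits 15.0 and 14.7. Non-coding members took 377 and 366 CPM, which is 31.6% and 31.7% of all member UMIs, nearly all of it from Kcnq1ot1.

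Of the 98 members, 33 reached 5 CPM over all cells in either library and 12 reached 20 CPM. A total of 77 members had at least 20 UMIs in each library, and 56 of them were highest in the same family in both. Cajal-Retzius cells, though among the smallest families, were the highest family for 20 of these, excitatory neurons for 14, GABAergic neurons for 10, progenitors for 5, vascular cells for 4, microglia and macrophages for 2 and meningeal fibroblasts for 1. The minimum of 20 UMIs applied to a whole library, not to a family, and the same counts over all genes were not made. Cajal-Retzius cells held 778306 and 1094544 UMIs in all, so a few UMIs can place a rare gene highest there. The map of members by cell class shows how closely the libraries repeat the pattern of levels.

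**Figure D1:**
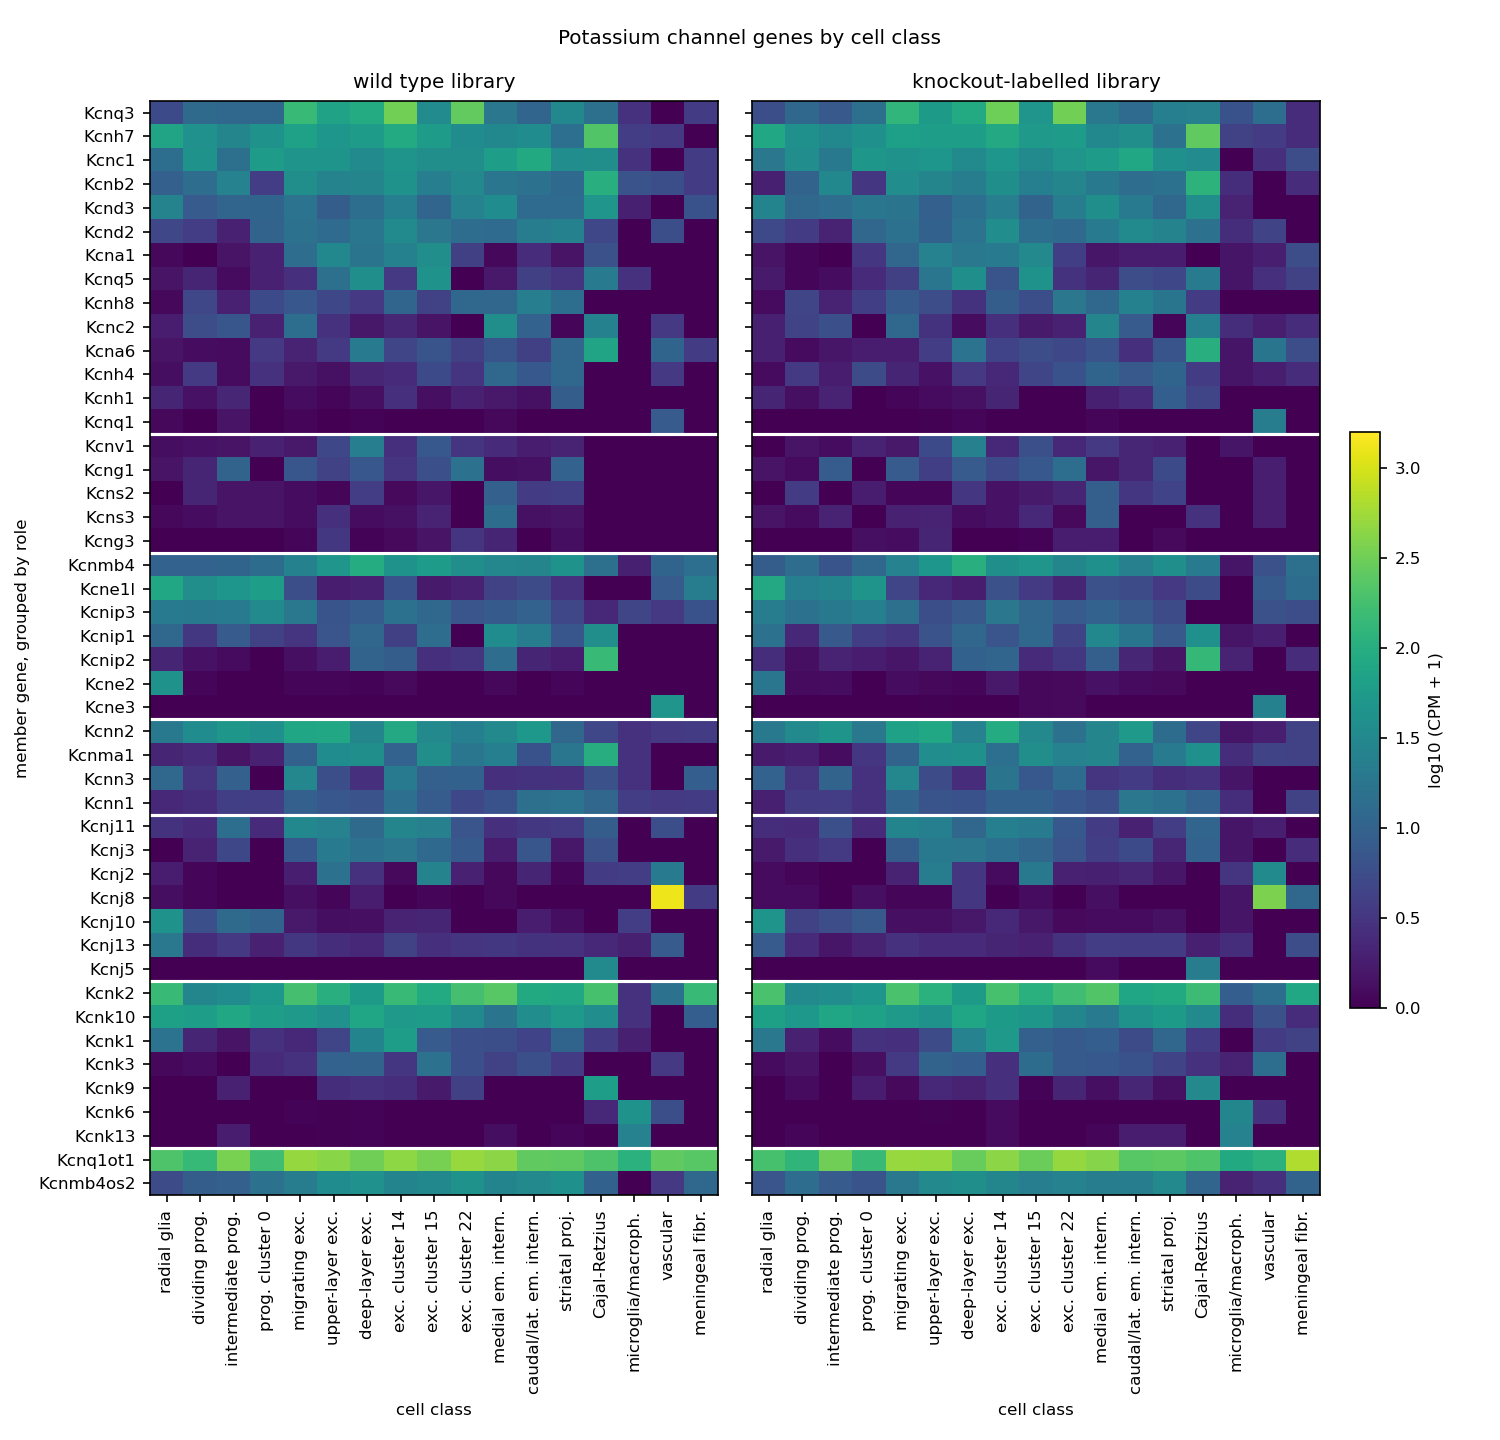
Levels of 46 members (rows, grouped by role, white lines between roles) in 17 cell classes (columns) of the wild-type library (left) and the knockout-labelled library (right), coloured by log10(CPM + 1). The brightest cell is Kcnj8 in vascular cells of the wild-type library, and Kcnq1ot1 is bright in nearly every column of both libraries.

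Among voltage-gated pores, the Kcnq subunits carry the M-current, a slow current that restrains repeated firing. Kcnq3 was uneven: it read 110 and 116 CPM in excitatory but 21.6 and 19.2 CPM in GABAergic neurons and 9.09 and 9.32 CPM in progenitors. Within excitatory neurons Kcnq3 reached 325 and 308 CPM in cluster 14 and 272 and 325 CPM in cluster 22, a cluster led by Tfap2d, against 34.1 and 45.8 CPM in cluster 15. In migrating neurons Kcnq3 stood at 142 and 126 CPM, above 69.1 and 54.6 CPM in upper-layer neurons. Kcnq3 then read 91.4 and 89.8 CPM in deep-layer neurons. Kcnq5 read 1.72 and 3.05 CPM in migrating, 14.3 and 17.3 CPM in upper-layer and 38.1 and 37.9 CPM in deep-layer neurons. From migrating to upper-layer neurons the genes thus went opposite ways, while both were higher in deep-layer than in upper-layer neurons, in each library.

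Kcnh7, an ether-a-go-go-related subunit, was spread from radial glia (72.9 and 80.1 CPM) to neurons and was highest in Cajal-Retzius cells at 216 and 263 CPM (184 to 251 and 234 to 295). Its relatives were more restricted. Kcnh8 read 22.7 and 24.8 CPM in caudal or lateral eminence interneurons against 4.74 and 6.11 CPM in all excitatory neurons. Kcnh4 read 10.9 and 9.81 CPM in striatal projection neurons and 11.0 and 9.598 CPM in medial eminence interneurons, against 1.28 and 1.99 CPM in excitatory neurons. Kcnh1 was at 7.82 and 8.10 CPM in striatal projection neurons and at most 1.82 CPM in the other 12 classes that had 50 or more cells per library.

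The delayed rectifier Kcnb2 also peaked in Cajal-Retzius cells, the early-born reelin-producing neurons of the cortical surface. Kcnb2 read 103 and 117 CPM there (81.5 to 128 and 97.6 to 139), against 29.8 and 28.5 CPM in excitatory and 14.4 and 15.8 CPM in GABAergic neurons. Kcna6 reached 73.2 and 99.6 CPM in Cajal-Retzius cells, with 20.3 and 15.7 CPM in deep-layer neurons and 2.51 and 2.83 CPM in upper-layer ones. Kcna1, a low-threshold channel of axons, was nearly limited to excitatory neurons: 23.6 and 19.6 CPM against 0.525 and 0.683 CPM in GABAergic neurons and 0.260 and 0.479 CPM in progenitors.

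The Kcnc genes encode fast channels that later let interneurons fire at high rates. Kcnc1 was present in all neuron classes and in dividing progenitors (41.8 and 35.98 CPM), and stood at 87.3 and 80.1 CPM in caudal or lateral eminence interneurons. Kcnc2 had 37.5 and 27.9 CPM in medial eminence interneurons, while only 1 UMI was found in the striatal projection neurons of each library (0.153 and 0.0952 CPM). Outside interneurons Kcnc2 read 13.4 and 10.6 CPM in migrating excitatory neurons and 1.90 and 1.95 CPM in upper-layer ones. The A-type pores Kcnd2 and Kcnd3, which delay firing, differed in progenitors: Kcnd3 read 26.4 and 26.8 CPM in radial glia, and Kcnd2 read 3.74 and 4.16 CPM there and 14.5 and 15.3 CPM in migrating neurons.

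Silent subunits form no channel alone and modify Kcnb pores. All 10 together gave 15.0 and 14.7 CPM, and no single one reached 5 CPM over all cells, yet several were uneven between classes. Kcnv1 read 22.5 and 23.5 CPM in deep-layer neurons (19.9 to 25.5 and 20.6 to 26.7), against 3.90 and 4.31 CPM in upper-layer and 0.644 and 0.653 CPM in migrating neurons. Kcng1 read 14.9 and 13.2 CPM in excitatory cluster 22, and 18.3 and 9.05 CPM in a cluster of striatal projection neurons. Kcns2 (8.50 and 8.36 CPM) and Kcns3 (12.6 and 8.36 CPM) were highest in medial eminence interneurons, and Kcns3 stood at 0.385 CPM and 0 UMIs in caudal or lateral eminence interneurons.

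Auxiliary subunits separated classes as well. The Kcnip genes encode calcium-binding partners of Kcnd pores. Kcnip2 read 146 and 134 CPM in Cajal-Retzius cells (121 to 176 and 114 to 158), against 3.09 and 3.06 CPM in excitatory and 5.64 and 3.54 CPM in GABAergic neurons. Among excitatory classes Kcnip2 was at 9.43 and 8.86 CPM in deep-layer and 0.770 and 1.06 CPM in upper-layer neurons. Kcnip1 read 35.5 and 30.4 CPM in medial eminence interneurons and 6.13 and 6.86 CPM in striatal projection neurons. Kcnip3 was highest in progenitors, at 20.6 and 18.3 CPM.

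Kcnmb4, the neuronal partner of the large-conductance calcium-activated channel, read 24.8 and 25.4 CPM in migrating, 45.7 and 46.5 CPM in upper-layer and 95.9 and 102 CPM in deep-layer neurons. The pore it joins, Kcnma1, read 8.95 and 9.57, 34.6 and 36.4, and 38.2 and 38.9 CPM in the same 3 classes. Kcnmb2 was instead at 30.6 and 26.2 CPM in medial eminence interneurons and 1.69 and 1.33 CPM in striatal projection neurons. Kcne1l, an X-linked single-pass subunit, was highest in progenitors but not limited to them. It read 80.6 and 84.7 CPM in radial glia and at most 1.30 CPM in upper- and deep-layer neurons. In progenitor cluster 0 (with Olig1, Olig2 and Gsx1 among its leading genes) it read 58.8 and 44.5 CPM. Over its highest level in any other family, its mean of both libraries was 1.76-fold in dividing progenitors. That ratio was 2.15 in intermediate progenitors and 3.00 in progenitor cluster 0.

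The small-conductance pores Kcnn1, Kcnn2 and Kcnn3, which carry afterhyperpolarizations, each took another place. Kcnn2 read 77.3 and 67.5 CPM in migrating and 80.8 and 81.0 CPM in upper-layer neurons, and 27.5 and 25.6 CPM in deep-layer neurons. Kcnn3 read 29.1 and 29.2 CPM in migrating neurons and 4.93 and 4.60 CPM in upper-layer ones. Kcnn1 was highest, among the 13 larger classes, in striatal projection neurons in the wild-type library (15.8 CPM) and in caudal or lateral eminence interneurons in the knockout-labelled one (17.4 CPM), and the intervals of these classes overlapped in each library.

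ATP-sensitive channels, which open when ATP falls, pair a Kcnj pore with a sulfonylurea receptor, and 2 such pairs were seen in separate cell families. Kcnj8 and its receptor Abcc9 lie 16247 bases apart on chromosome 6 (Kcnj8 at chr6:142564837-142571614, Abcc9 at chr6:142587862-142702315, mm10), and both were found in vascular cells. In mural cells, the contractile cells of vessel walls separated at a finer clustering (26 cells in each library), Kcnj8 read 1604 and 1432 CPM (1471 to 1745 and 1286 to 1590) and Abcc9 read 1008 and 990 CPM. In endothelial cells (8 and 43 cells) Kcnj8 had 0 UMIs in the wild-type library, which allows up to 39.4 CPM, and 77.0 CPM in the knockout-labelled one. Over the vascular family Kcnj8 gave 1310 and 368 CPM and Abcc9 822 and 253 CPM, while mural cells made up 26 of 34 and 26 of 69 of its cells.

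Kcnj11 and its receptor Abcc8 lie 3758 bases apart on chromosome 7 (Kcnj11 at chr7:46093953-46100764, Abcc8 at chr7:46104523-46180033, mm10), and both were found mainly in excitatory neurons. Kcnj11 read 23.4 and 19.8 CPM there and Abcc8 20.1 and 18.1 CPM. In GABAergic neurons Kcnj11 read 2.17 and 2.39 CPM and Abcc8 1.31 and 1.37 CPM. Among excitatory classes Kcnj11 read 30.4 and 26.8 CPM in migrating, 25.04 and 23.0 CPM in upper-layer and 11.6 and 10.53 CPM in deep-layer neurons. No counted coding gene lies between the partners of either pair in the annotation used.

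**Figure D2:**
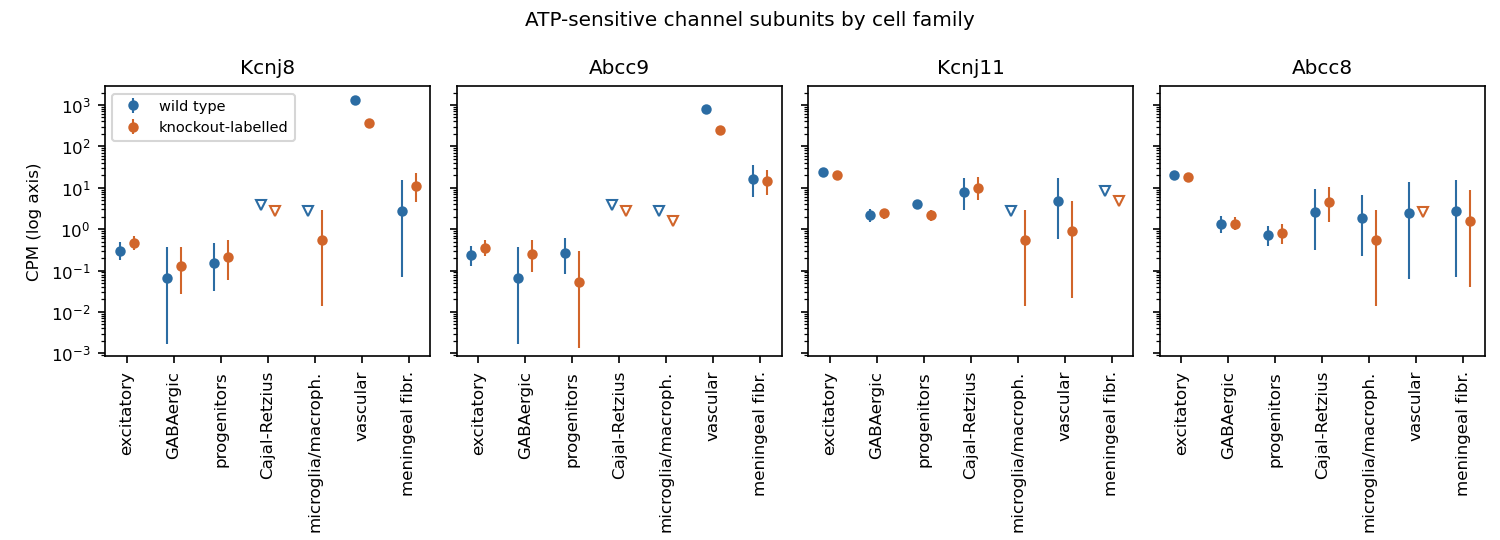
CPM on a log axis of the pores Kcnj8 and Kcnj11 and of their receptors Abcc9 and Abcc8 in 7 cell families, with exact 95% counting intervals. Blue is the wild-type and orange the knockout-labelled library, and open triangles show the limit of 3 counts where no UMI was found. Kcnj8 and Abcc9 stand highest in vascular cells, and Kcnj11 and Abcc8 in excitatory neurons.

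Kcnj10, the potassium-buffering channel of glia, read 42.8 and 44.1 CPM in radial glia (37.8 to 48.3 and 38.1 to 50.8) and 0.572 and 0.501 CPM in excitatory neurons. Kcnj2, a classical strong rectifier, stood at 15.2 and 21.1 CPM in upper-layer neurons and 25.8 and 18.4 CPM in excitatory cluster 15, at 1.83 and 2.16 CPM in deep-layer neurons, and at 105 and 42.4 CPM in endothelial cells from 8 and 38 UMIs. The G-protein-gated subunits differed as well. Kcnj3 was an excitatory gene at 13.98 and 13.2 CPM. Kcnj5 was found almost solely in Cajal-Retzius cells, where 26 of its 26 wild-type and 24 of its 26 knockout-labelled UMIs lay (33.4 and 21.9 CPM). In excitatory neurons Kcnj5 had 0 UMIs in both libraries, which allows at most 0.0505 and 0.0485 CPM.

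Leak channels set the resting potential. Kcnk2, a mechano- and lipid-sensitive channel, was abundant in most classes, with 233 and 214 CPM in medial eminence interneurons, 182 and 190 CPM in migrating excitatory neurons, 142 and 188 CPM in radial glia and 54.3 and 55.2 CPM in deep-layer neurons. Its relative Kcnk10 ran partly the other way: 15.9 and 20.2 CPM in medial eminence interneurons, 76.4 and 75.6 CPM in deep-layer neurons and 66.2 and 60.7 CPM in progenitors. Kcnk1 read 61.6 and 53.3 CPM in excitatory cluster 14 and 26.6 and 24.9 CPM in deep-layer neurons, and 3.69 and 4.43 CPM in upper-layer ones. Kcnk9 was at 61.7 and 31.1 CPM in Cajal-Retzius cells and at 1.16 and 0.825 CPM in excitatory neurons. In microglia and macrophages 2 leak channels stood out. Kcnk13, which acts in microglial surveillance of tissue, read 24.9 and 25.1 CPM (16.4 to 36.2 and 18.4 to 33.4), and Kcnk6 read 41.5 and 28.9 CPM. In GABAergic neurons Kcnk6 had 0 UMIs in both libraries, which allows at most 0.197 and 0.128 CPM.

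Kcnq1ot1 is the long non-coding transcript that silences neighbouring genes on the paternal chromosome, and it runs antisense within Kcnq1. It read 411 and 420 CPM in excitatory neurons, 331 and 308 CPM in GABAergic neurons and 209 and 179 CPM in progenitors. Kcnq1 itself had 24 UMIs in the knockout-labelled vascular cells and 3 in the wild-type ones, with no other family above 3. Kcnmb4os2 starts beside Kcnmb4 on the opposite strand and overlaps it by 716 bases. It read 31.6 and 26.97 CPM in excitatory neurons, against 7.69 and 9.27 CPM in progenitors, where Kcnmb4 read 9.67 and 10.1 CPM. In all, 38 members overlap another counted gene, 37 of them on the opposite strand, and the sources used here do not say whether strand was used in counting.

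To set classes against each other, a gene was counted as different when it differed by at least 1.5-fold with a counting interval that leaves out 1 in each library separately. The rule sets a size and tests nothing. Genes under 5 CPM in both classes, or under 100 UMIs together, were left out. A gene could therefore enter through the 1 class where it was high, as Kcna1 did through excitatory neurons over progenitors. The shares of members and of all genes below depend on this filter, and its part in them was not tested. In excitatory neurons over progenitors 24 of 32 measured members were higher and 3 lower, where 23.3% and 23.2% of all measured genes were higher and lower. The median member stood at log2 1.42 and 1.496, and the median of all genes at -0.01 and 0.02. The 3 lower members were Kcnj10 (-5.06 and -4.75), Kcne1l (-4.68 and -4.22) and Kcnip3 (-0.96 in both). Among the higher were Kcna1 (6.504 and 5.35), Kcnq5 (4.68 and 5.39), Kcnma1 (4.64 and 4.97) and Kcnq3 (3.598 and 3.63). In GABAergic neurons over progenitors 19 of 29 were higher and 6 lower, against 22.6% and 22.1% of all genes.

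In GABAergic over excitatory neurons 9 of 38 members were higher and 12 lower, against 8.62% and 9.25% of all genes. Kcnh4 (2.99 and 2.21), Kcns2 (2.76 and 2.90), Kcnt1 (2.64 and 2.61) and Kcnc2 (2.04 and 1.85) were among the higher. Kcna1 (-5.49 and -4.84), Kcnj2 (-4.83 and -3.602), Kcnj11 (-3.43 and -3.05) and Kcnq3 (-2.35 and -2.59) were among the lower. In medial eminence interneurons over striatal projection neurons, 8 of 23 members were higher and 3 lower, against 8% and 4.84% of all genes. Kcnc2 had the largest ratios of the higher members, 7.93 (5.44 to 13.2) and 8.19 (5.70 to 13.5), each against 1 UMI in striatal projection neurons. Kcnmb2 (4.18 and 4.30) and Kcnip1 (2.53 and 2.15) were also higher, and Kcnk10 (-1.70 and -1.43) was among the lower.

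Within the excitatory series, 13 of 35 members were higher and 7 lower in upper-layer over migrating neurons, against 8.64% and 10.9% of all genes. The higher group held Kcnj2 (4.15 and 4.28), Kcnq5 (3.06 and 2.51) and Kcnma1 (1.95 and 1.93), and the lower group Kcnc2 (-2.82 and -2.44), Kcnn3 (-2.56 and -2.66) and Kcnq3 (-1.04 and -1.21). In deep-layer over upper-layer neurons 12 of 37 were higher and 5 lower, against 7.84% and 7.04%. The higher were led by Kcnip2 (3.62 and 3.06), Kcna6 (3.01 and 2.47), Kcnk1 (2.85 and 2.49) and Kcnv1 (2.53 and 2.45). The 5 lower were Kcnj2 (-3.05 and -3.28), Kcnip4 (-2.98 and -2.67), Kcnn2 (-1.55 and -1.66), Kcnj11 (-1.11 and -1.12) and Kcnk2 (-0.90 and -0.98).

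**Figure D3:**
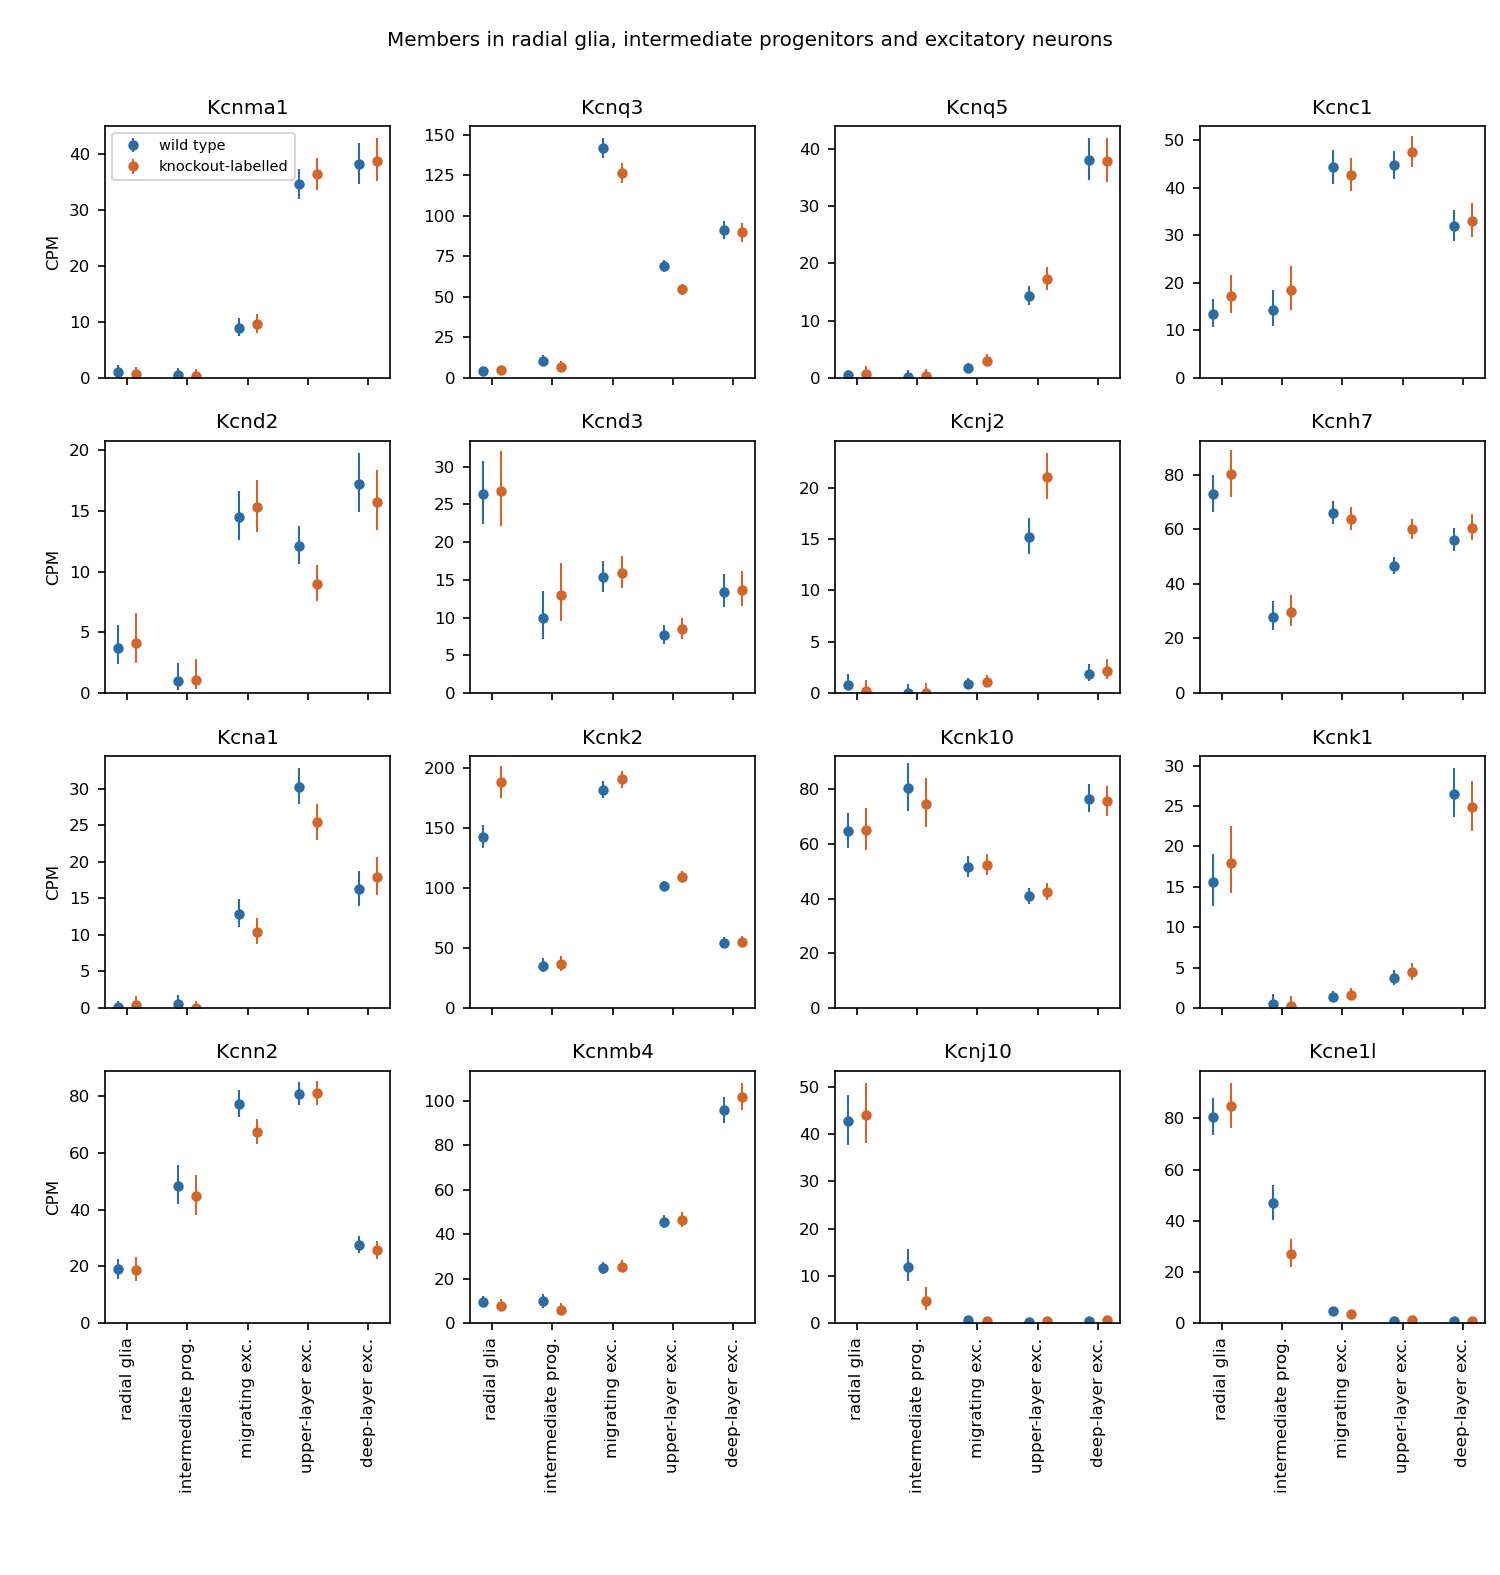
CPM of 16 members (linear axes from 0) in radial glia, intermediate progenitors and migrating, upper-layer and deep-layer excitatory neurons, with exact 95% counting intervals. Blue is the wild-type and orange the knockout-labelled library. Kcne1l and Kcnj10 are highest in radial glia, Kcnq5 and Kcnmb4 in deep-layer neurons, and Kcnq3 in migrating neurons.

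The comparison of the libraries asks whether the members differ with the Cyfip2 label. Over all cells none of the 33 measured members was called, that is, differed by 1.5-fold with an interval leaving out 1, where 1.08% of all measured genes were higher and 0.23% lower (1.31% together). Members ranged from log2 -0.47 (Kcne1l, 12.9 and 9.35 CPM) to 0.40 (Kcnh8, 5.48 and 7.24 CPM), with a median of -0.03 against -0.02 over all genes. In excitatory neurons none of 35 was called, where 0.395% of all genes were higher and 0.148% lower (0.544% together), and members ranged from -0.31 (Kcna6) to 0.37 (Kcnh8). As 1 library per group gives no replicate spread, these small differences cannot be placed against variation between mice.

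In GABAergic neurons 3 of 33 members were called, against 1.17% of all genes higher and 0.386% lower (1.55% together). Kcnk3, an acid-sensitive leak channel, was higher, at 3.28 and 5.03 CPM (log2 0.62, interval 0.13 to 1.13). Kcns3 was lower at 5.31 and 3.16 CPM (log2 -0.75, -1.23 to -0.28), and Kcnip2 was lower at 5.64 and 3.54 CPM (log2 -0.67, -1.12 to -0.22). All 3 fell short of 1.5-fold when every cluster was given the same weight in both libraries: 0.46 for Kcnk3, -0.34 for Kcns3 and -0.36 for Kcnip2. Both lower genes were highest in one cluster of medial eminence interneurons, which held 648 of 781 and 795 of 1148 cells of that class. In it Kcns3 read 15.8 and 13.3 CPM and Kcnip2 14.8 and 11.8 CPM.

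In progenitors 2 of 22 members were called, against 0.422% of all genes higher and 1.63% lower (2.06% together), and both are genes of the choroid plexus, the epithelium that makes cerebrospinal fluid. Kcne2, which joins Kcnq1 in epithelia, read 13.98 and 4.10 CPM (log2 -1.77, -2.15 to -1.40), and Kcnj13, an inward rectifier of transporting epithelia, read 6.91 and 2.61 CPM (log2 -1.41, -1.91 to -0.92). All 6 markers of the choroid list had UMIs in these progenitors, summing to 7334 and 2409 CPM. The finer clustering set apart 10 and 8 choroid plexus cells, all of which lie within the class named radial glia, and in them Kcne2 read 608 and 368 CPM and Kcnj13 222 and 154 CPM. Without those 18 cells Kcne2 had 3 and 10 UMIs left in progenitors (log2 1.75, -0.20 to 4.25) and Kcnj13 36 and 21 (log2 -0.76, -1.61 to 0.05), so both were under the minimum of 100 UMIs and not called. Kcnj13 lies within Gigyf2 on the opposite strand. Over the 22 measured members in progenitors the median log2 ratio was -0.16, against -0.03 over all measured genes. The intervals of 8 members lay below 0 and of 0 members above, against 1895 below and 1002 above of 10654 genes. With equal cluster weights the median was -0.08 for members against -0.02 for all measured genes.

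**Figure D4:**
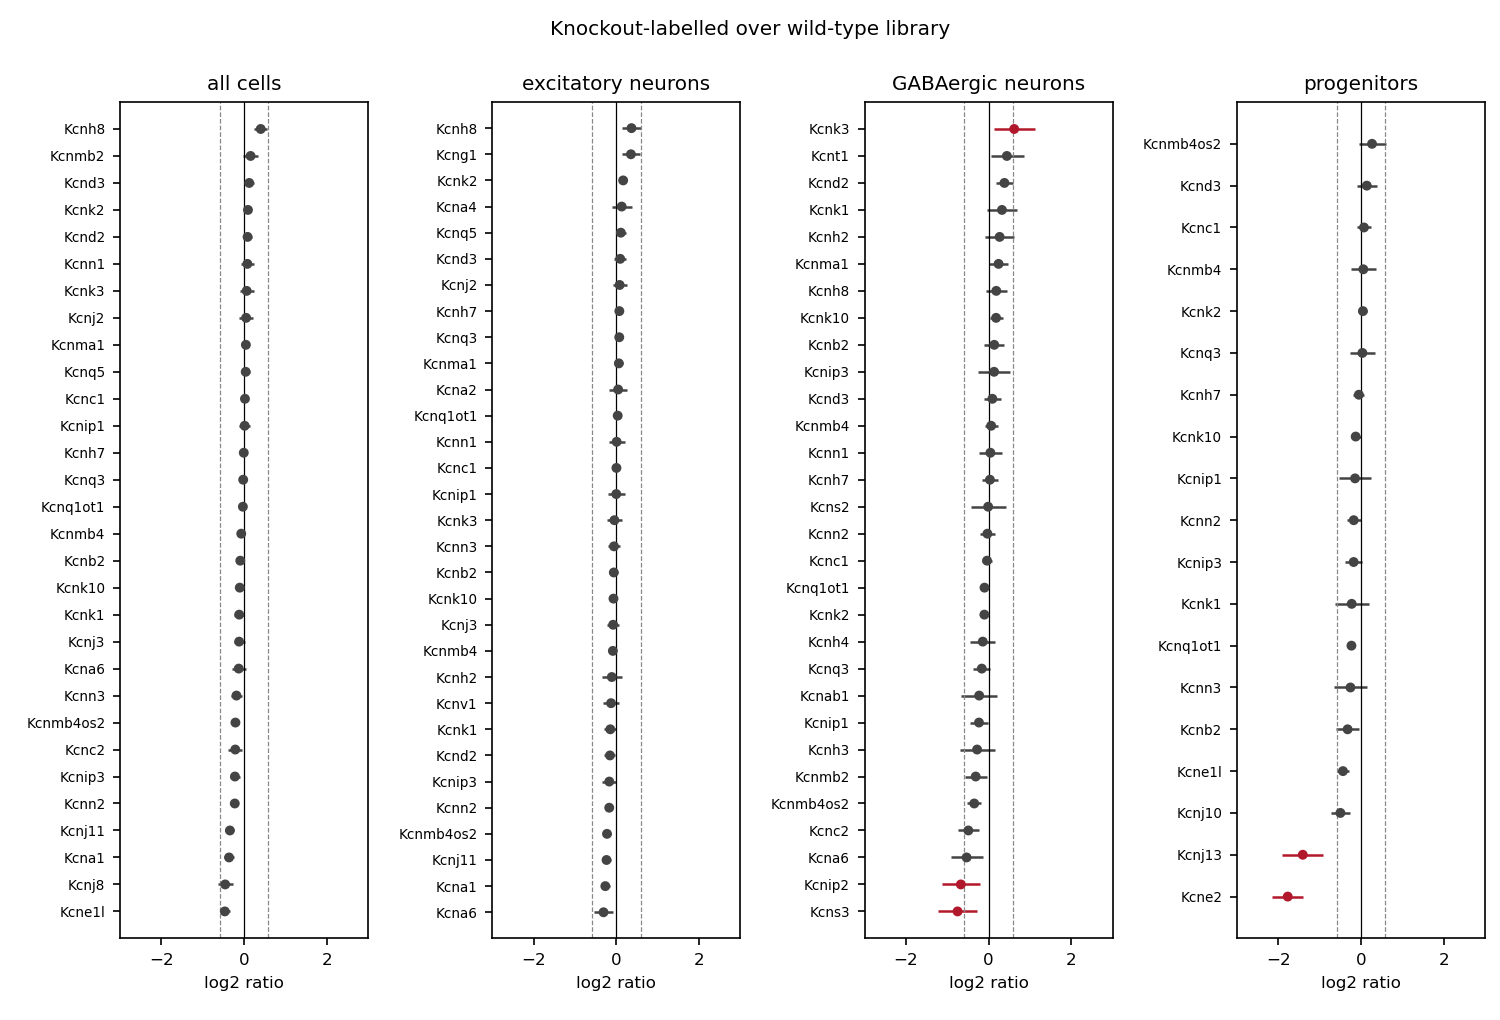
Log2 ratios (knockout-labelled library divided by wild-type library) for the measured members reported here in 4 sets of cells, with exact 95% counting intervals, ordered by ratio. Dashed lines mark 1.5-fold, and red marks the 5 members called, 3 in GABAergic neurons and 2 in progenitors.

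The 13 classes with at least 50 cells in each library gave 282 pairs of a measured member and a class. Of these 8 were higher and 11 lower by the same rule (6.74%), against 2.11% of 115009 pairs over all genes. With at least 20 CPM in either library, 7 of 165 member pairs were called (4.24%), against 1.53%. The members called at that level were Kcne1l in 2 progenitor classes, Kcnn2 in progenitor cluster 0, Kcne2 in radial glia, Kcnd2 in medial eminence interneurons, and Kcnh7 and Kcnmb4os2 in excitatory cluster 22.

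Kcne1l did not stand apart between the libraries in radial glia, at 80.6 and 84.7 CPM (log2 0.07, -0.13 to 0.27). It was lower in the knockout-labelled library in dividing progenitors, at 37.6 and 23.0 CPM (log2 -0.71, -0.99 to -0.43). There 1 of 15 members was higher and 1 lower, against 0.72% and 1.06% of all genes (1.78% together). It was lower too in intermediate progenitors, at 46.7 and 27.1 CPM (log2 -0.79, -1.15 to -0.43), as the only one of 9 members called, against 0.403% of all genes higher and 1.17% lower (1.57% together). In progenitor cluster 0 it read 58.8 and 44.5 CPM (log2 -0.40, -0.77 to -0.03), which was not called. Both clusters of dividing progenitors had the same sign, at -0.48 and -0.81. The mixture of dividing cells differed beside this, with the intermediate-progenitor marker list at 1658 and 1425 CPM and the GABAergic list at 2087 and 2426 CPM in that class. In intermediate progenitors their own list read 4158 and 4172 CPM and the radial glia list 960 and 964 CPM. The part of cell mixture in the Kcne1l values was not tested.

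Kcnn2 read 39.0 and 18.3 CPM in progenitor cluster 0 (log2 -1.10, -1.63 to -0.57), from 83 and 50 UMIs, as the only one of 8 members called, against 0.983% of all genes higher and 1.24% lower (2.22% together). In radial glia Kcnn2 read 18.9 and 18.7 CPM. There 2 of 16 members, Kcne2 and Kcnj13, were lower, against 0.872% of all genes higher and 2.1% lower (2.97% together). This class holds the 18 choroid plexus cells, and without them Kcne2 had 2 and 7 UMIs and Kcnj13 13 and 4, neither enough to be measured. Kcnj10 stayed under the minimum of 100 UMIs in intermediate progenitors, where it read 11.9 and 4.70 CPM from 49 and 17 UMIs. Kcnj11 did so too, at 13.1 and 4.97 CPM from 54 and 18 UMIs.

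**Figure D5:**
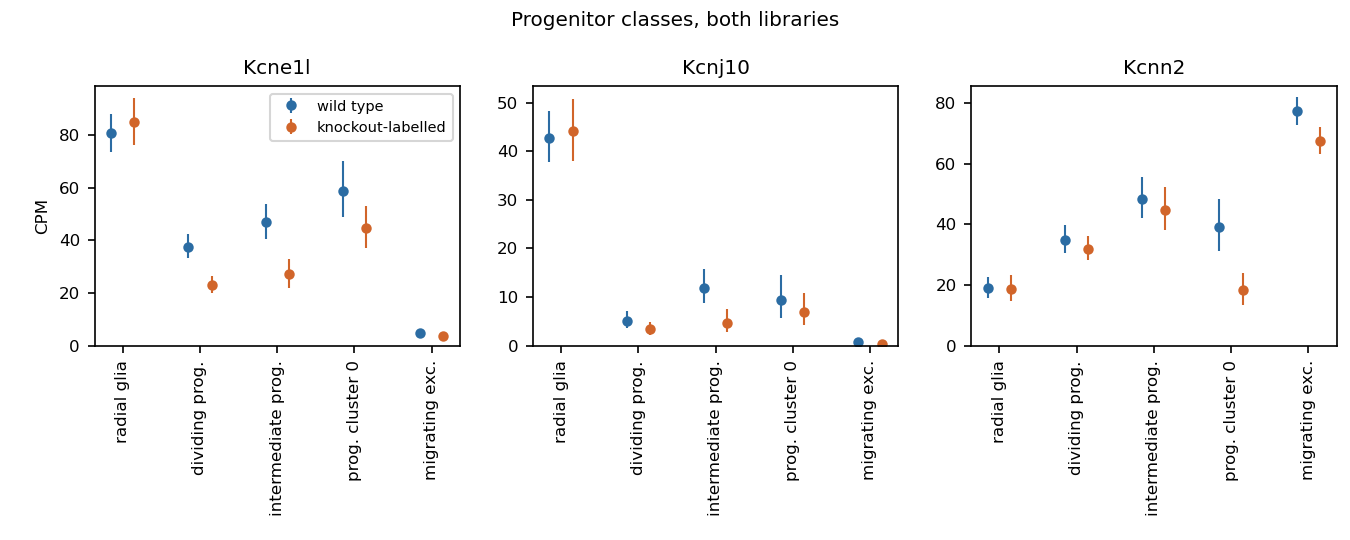
CPM of Kcne1l, Kcnj10 and Kcnn2 (linear axes from 0) in radial glia, dividing progenitors, intermediate progenitors, progenitor cluster 0 and migrating excitatory neurons, with exact 95% counting intervals, blue for the wild-type and orange for the knockout-labelled library. The libraries overlap in radial glia for all 3 genes and stand apart for Kcne1l in dividing and intermediate progenitors, for Kcnj10 in intermediate progenitors and for Kcnn2 in progenitor cluster 0 and migrating neurons.

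Among neurons, Kcnd2 in medial eminence interneurons read 12.1 and 20.3 CPM (log2 0.75, 0.35 to 1.16). In that class 2 of 27 members were higher and 2 lower, against 2.75% and 1% of all genes (3.75% together). This class joins cluster 2 (133 and 353 cells, with Sst, Lhx8 and Zic1), where Kcnd2 read 27.9 and 40.0 CPM, and cluster 18, where it read 8.02 and 7.92 CPM. With equal cluster weights the ratio was 0.29. Kcnk1, Kcns3 and Kcnip2 were also called in that class, and their weighted ratios were 0.48, -0.24 and -0.37. In striatal projection neurons 2 of 27 members were lower, against 1.19% of all genes higher and 0.406% lower (1.59% together). Kcng1 read 9.20 and 4.19 CPM (log2 -1.13) and Kcna6 10.4 and 5.81 CPM (log2 -0.84). With equal cluster weights both ratios were still beyond 1.5-fold, at -0.96 and -0.71, but no interval was made for weighted ratios. Within the cluster that held most of its UMIs, Kcng1 read 18.3 and 9.05 CPM, and Kcna6 in its own cluster read 22.8 and 14.3 CPM.

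In excitatory cluster 22, with 132 and 650 cells, 1 of 15 members was higher and 1 lower, against 3.21% and 4.08% of all genes (7.29% together). There Kcnh7 read 34.8 and 57.3 CPM (log2 0.72) and Kcnmb4os2 42.8 and 24.99 CPM (log2 -0.77). The other called pairs were at lower levels. In caudal or lateral eminence interneurons Kcnd3 was higher (12.3 and 19.1 CPM), 1 of 15 members, against 1.27% of all genes higher and 0.478% lower (1.75% together). In excitatory cluster 14 Kcnn1 was lower (13.9 and 8.99 CPM) and Kcnma1 higher (9.28 and 13.9 CPM), 2 of 23 members, against 0.527% higher and 1.3% lower (1.83% together). In cluster 15 1 of 33 members was higher, against 0.381% higher and 0.689% lower (1.07% together).

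Upper-layer neurons had 1 of 33 members called, Kcnh5 (3.64 and 6.20 CPM), against 0.675% of all genes higher and 0.272% lower (0.948% together). The dividing progenitors' other called member was Kcnmb4os2 (7.72 and 13.1 CPM), and in radial glia Kcnj13 read 17.9 and 7.39 CPM. Deep-layer neurons had none of 34 members called, against 0.51% of all genes higher and 0.39% lower (0.899% together), and migrating neurons none of 27, against 0.536% and 0.347% (0.883% together). In microglia and macrophages the single measured member was not called, against 3.69% of all genes higher and 2.01% lower (5.7% together).

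A list of 34 genes that work beside potassium channels (partner subunits, pumps, carriers, hyperpolarization-activated and sodium channels) gave 24 measured over all cells and none called, with a median of -0.04. Over the same 13 classes 4 pairs were higher and 2 lower of 203 measured (2.96%), against 2.11% over all genes. The chloride importer Slc12a2 was lower in intermediate progenitors, at 37.7 and 23.8 CPM (log2 -0.67), and the sodium channel Scn1a was higher in caudal or lateral eminence interneurons, at 10.8 and 22.5 CPM (log2 1.07). Other calls were Dpp6, a partner of Kcnd pores, in dividing progenitors (log2 0.92), the sodium channel Scn8a in excitatory cluster 22 (1.04), and Hcn4, a hyperpolarization-activated pore, in medial eminence interneurons (0.66, or 0.08 with equal cluster weights). In microglia and macrophages Slc12a2 was lower (-0.80). Cntnap2, which gathers Kcna channels on axons, read 29.5 and 16.9 CPM in progenitors (log2 -0.80) and fell short of the fold with equal cluster weights (-0.43). Lrrc38, an auxiliary subunit of large-conductance channels, had 40 UMIs in the wild-type library, 38 of them in 9 progenitor cells, and 0 in the knockout-labelled one.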

How the data were processed

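Single-cell RNA of 2 mouse forebrain libraries was analysed. The deposited values are UMI counts per gene and barcode, made by the authors: the file headers name Cell Ranger 4, and the submitters' processing notes name mm10. The sources used here do not give the annotation release, the strand use or the end of the transcript read. All columns had a sample, and the counts of gene rows were used as deposited. The members and lists were chosen with earlier results of these data known.

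Cells had at least 1000 UMIs, 500 genes and at most 10% mitochondrial UMIs (9086 and 12855 barcodes). The highest Scrublet scores were left out at 0.8% per 1000 cells (660 and 1322, or 7.26% and 10.3%); the automatic threshold marked 213 and 386. Counts were scaled to 10000 and log-transformed, and 2000 variable genes without the members, 30 principal components and 15 neighbours went into Leiden clustering at resolution 1 (29 clusters) or 2 (42), with scanpy 1.11.5, Python 3.11.15 and scipy 1.17.1. Libraries were not aligned.

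A cluster took a family name from fixed markers when at least 3 stood at 0.5 or more of their highest cluster level, their mean relative level was at least 0.3, 50% of cells had 3 family markers, and no other family led the top 10 genes. A class name needed a class level of at least 0.3, a lead of 0.05 and at least 3 class markers at 0.5 or more of their highest level. It also needed 1 marker of its own in the top 10, or more than 1 where the class level was under 0.4. No other class of the family could have more markers in the top 10. The rule for names was chosen, and once changed, with the clusters in view.

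Counts were summed per library and class and given as CPM with exact 95% Poisson intervals; ratios have exact conditional intervals. A gene was measured at 5 CPM in either library and 100 UMIs in both together, and called at 1.5-fold (log2 0.58) with an interval leaving out 1. On simulated counts with 200 genes changed 2-fold, the rule recovered 100% over all cells (10777 genes), 100% in excitatory neurons (10083), 99% in GABAergic neurons (10312) and 99.5% in progenitors (10597), and called 0, 0, 6 and 9 unchanged genes. Both simulated libraries were Poisson counts drawn from the pooled profile of the real ones. The simulation thus checks the code under counting error only. It holds no variation between mice, libraries or cell mixtures and does not bear on whether a call would repeat. Free RNA was not corrected for.

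Named members were the 30 with the most UMIs, the 2 per class most raised over other families with at least 20 UMIs, and those called in the 4 main comparisons. Kcnj8, Kcna5, Kcnmb2, Kcnip4, Kcnt1, Kcnq1, Kcnh5 and other members outside that rule, and the partner genes singled out, were named after their values were seen. Some members and partner genes entered all counts and sums but are not reported here by name. Gene positions are from GENCODE M21.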

Additional observations from a re-analysis of the deposited data

Results flagged for a closer look

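For 7 members, 1 class stood higher and another lower in the knockout-labelled library, each with a counting interval that leaves out 0. The differences between classes were not tested. The same count over all genes was not made, so the 7 have no background. In upper-layer neurons the intervals of 8 of 33 members lay above 0 and 5 below, against 1275 and 1326 of 9919 genes. Kcnd2 differed by 1.18 on the log2 scale between medial eminence interneurons (0.75) and upper-layer neurons (-0.43, 12.1 and 8.97 CPM). Kcnmb4os2 differed by 1.54 between dividing progenitors (0.76) and excitatory cluster 22 (-0.77), and it was below 0 in 6 of its 10 measured classes and above in 1. Kcnj2 differed by 0.95 between upper-layer neurons (0.47, 15.2 and 21.1 CPM) and excitatory cluster 15 (-0.49, 25.8 and 18.4 CPM). Kcnq3 differed by 0.81 between cluster 15 (0.42) and striatal projection neurons (-0.38), and Kcnmb4 by 0.80 between dividing progenitors (0.51) and cluster 15 (-0.29). Kcnk2 differed by 0.52 between radial glia (0.40) and medial eminence interneurons (-0.12), and Kcnq1ot1 by 0.41 between upper-layer neurons (0.21) and caudal or lateral eminence interneurons (-0.20).

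Barcodes under 100 UMIs, which enter no comparison, gave 988 CPM of summed members in the wild-type and 992 CPM in the knockout-labelled library, with 80 and 79 members found at least once.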

How the results depend on the processing

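No paired analysis was possible because each group has 1 library. The counts of members called below stand without the share of all genes called at each setting. They therefore do not show whether members moved more than other genes. The count of members called over all cells, 0 as given, became 9 without a CPM minimum and with at least 10 UMIs. It became 5 at a lower fold and 1 with equal cluster weights (Kcnj8, at -1.66). Calls with equal cluster weights used the weighted ratio but the interval of the unweighted one. That weighting kept all vascular cells in a single cluster, where mural cells were 26 of 34 and 26 of 69. Kcnj8 in mural cells alone is given above, and the part of this mixture in the ratio was not tested. In excitatory neurons the count of members called went from 0 to 4 without the CPM minimum and 2 at a lower fold. In GABAergic neurons it went from 3 to 0 at 20 CPM, 0 with equal cluster weights, 7 without the CPM minimum and 8 at a lower fold. In progenitors it went from 2 to 0 at 20 CPM, 5 without the CPM minimum, 4 at a lower fold and 0 without choroid plexus cells, an alternative chosen after seeing the data; there the ratio of Kcne2 reversed, to 1.75, on 3 and 10 UMIs (interval -0.20 to 4.25). The median log2 ratio of members ranged over the alternatives from -0.07 to 0.00 over all cells, -0.06 to 0.01 in excitatory neurons, -0.05 to 0.04 in GABAergic neurons and -0.16 to -0.08 in progenitors. Of 153 levels compared between clusterings, 147 kept within their counting interval. The other 6 were Kcnq1ot1 in GABAergic neurons (344 and 320 CPM) and, in wild-type progenitors, Kcnq1ot1 (201 CPM), Kcnk1 (3.17), Kcne2 (0.106) and Kcnj13 (1.85); the level of Kcne2 became 0.00757 of that given. Of 37 ratios of called members, 26 kept their call, 10 fell short of it and 1 reversed. Where the cause of a change is not in the setting itself, the cause was not tested. Members under 100 UMIs in a class could not be compared at this depth.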

Other observations

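Some values belong to no comparison above. Kcnb2 had 52 UMIs in 19 of 371 radial glia of the wild-type library, up to 8 in a cell, and 4 UMIs in 4 of 296 radial glia of the knockout-labelled one, at a median of 15915 and 14594 UMIs per cell. In intermediate progenitors the 54 wild-type UMIs of Kcnj11 lay in 42 of 266 cells and the 18 knockout-labelled ones in 17 of 273. Kcne3 had 19 UMIs in the wild-type vascular cells, all from 1 cell, and 28 from 6 cells in the knockout-labelled library. Kcnmb1, the smooth-muscle partner of the large-conductance channel, had 13 UMIs in 9 wild-type vascular cells and 3 in 3 knockout-labelled ones. In meningeal fibroblasts, with 18 and 34 cells, Kcnq1ot1 read 231 and 664 CPM.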
